A study of Mus musculus with 4 samples.

Results

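The blood-retina barrier transporters are 10 membrane carrier and pump genes by which the retinal endothelium is known to move nutrients, hormones and drugs between blood and tissue. They were taken from a fixed list of names, Slc2a1, Slc7a5, Slc3a2, Slco1a4, Slco1c1, Abcb1a, Abcg2, Mfsd2a, Slc38a5 and Slc16a1. All 10 were found among 21627 protein-coding genes on the 19 autosomes and X. For each gene, every listed peak of open chromatin that overlapped the gene body or the 10 kb on either side of it was collected, and peaks within 1 kb of a gene end were marked. The assay was ATAC-seq, in which a transposase inserts adapters into open DNA. Endothelial cells were sorted from retina, 2000 per library, from C57BL/6 mice labelled P16. The control group had 2 libraries, and the group with the genotype Zeb1 knockdown, whose titles carry CKO, also had 2. The labels give no allele, no Cre driver and no word on separate or pooled animals, so spread within a group could be technical only. Peak lists do not show whether Zeb1 was lost, and the genotype labels were not checked by them.

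The retinal capillary wall is sealed by tight junctions, so polar nutrients cross it through carriers. Solute carriers (Slc and Slco genes) bring in glucose, amino acids, monocarboxylates and hormones, while ATP-driven pumps (Abc genes) return lipophilic compounds to the blood. Zeb1, a transcription factor with zinc fingers, is known to bind the E2-box and to repress genes of epithelial cells.

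The lists held 7608 peaks in control replicate 1, 13672 in control replicate 2, 13689 in knockdown replicate 1 and 19886 in knockdown replicate 2. Read depth is unknown, so too few reads could also leave a peak out. In such bulk samples, fewer cells with an open site and less opening per cell cannot be told apart. Control replicate 1 has the shortest list. For the transporters, counts over the other 3 libraries, added after the data were seen, stand beside those over all 4.

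The promoter sequences of 9 of the 10 transporters were in the RefSeq promoter table on GRCm38.p6, the assembly behind mm10, and Slc7a5 was not. Below are 6 of the 11 listed promoters. Those of Slc2a1, Slc16a1 and the start of Abcg2 numbered 3 lay under a peak in 3 or 4 libraries, and those of Mfsd2a, Slc38a5 and Slco1c1 lay under none. Each is the 250 bases before the annotated start, written 5′ to 3′ in the direction of transcription. Capitals mark every match on either strand to the E2-box CAGGTG, to the Sp/Klf motif GGGCGG or to the NF-Y motif CCAAT.
Slc2a1, chr4:119108495-119108744, plus strand: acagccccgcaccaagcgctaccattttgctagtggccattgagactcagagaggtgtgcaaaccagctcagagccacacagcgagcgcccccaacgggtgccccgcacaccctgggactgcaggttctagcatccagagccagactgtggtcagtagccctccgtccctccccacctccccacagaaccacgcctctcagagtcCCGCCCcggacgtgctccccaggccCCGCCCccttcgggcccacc
Slc16a1, chr3:104638414-104638663, plus strand: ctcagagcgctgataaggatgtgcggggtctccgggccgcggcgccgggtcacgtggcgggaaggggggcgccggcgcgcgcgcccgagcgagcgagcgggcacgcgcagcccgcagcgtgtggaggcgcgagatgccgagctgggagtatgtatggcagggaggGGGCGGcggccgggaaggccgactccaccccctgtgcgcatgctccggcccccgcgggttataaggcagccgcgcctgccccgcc
Abcg2 start 3, chr6:58640296-58640545, plus strand: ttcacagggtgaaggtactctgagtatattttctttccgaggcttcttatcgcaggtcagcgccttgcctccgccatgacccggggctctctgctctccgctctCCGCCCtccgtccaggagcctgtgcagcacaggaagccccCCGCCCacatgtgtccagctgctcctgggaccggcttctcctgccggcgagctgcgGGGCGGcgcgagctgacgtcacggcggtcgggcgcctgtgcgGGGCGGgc
Mfsd2a, chr4:122961189-122961438, minus strand: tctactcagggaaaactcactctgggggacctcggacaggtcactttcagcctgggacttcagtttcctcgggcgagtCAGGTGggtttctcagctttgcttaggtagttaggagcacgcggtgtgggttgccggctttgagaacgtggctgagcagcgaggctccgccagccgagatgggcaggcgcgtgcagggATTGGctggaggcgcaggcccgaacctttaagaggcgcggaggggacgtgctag
Slc38a5, chrX:8271131-8271380, plus strand: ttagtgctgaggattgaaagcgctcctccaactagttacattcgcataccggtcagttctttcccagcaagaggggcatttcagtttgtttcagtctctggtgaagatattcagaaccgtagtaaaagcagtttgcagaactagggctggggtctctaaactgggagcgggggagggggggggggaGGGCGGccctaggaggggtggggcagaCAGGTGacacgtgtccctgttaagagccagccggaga
Slco1c1, chr6:141524104-141524353, plus strand: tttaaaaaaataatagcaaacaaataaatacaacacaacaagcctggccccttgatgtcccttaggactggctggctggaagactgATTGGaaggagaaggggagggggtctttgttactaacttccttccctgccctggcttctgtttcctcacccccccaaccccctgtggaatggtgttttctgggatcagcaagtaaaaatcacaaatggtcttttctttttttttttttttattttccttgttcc

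Most transporter loci were either open in every library or without a peak in any, and none was open in a single genotype. A locus peak was listed for 6 transporters in control replicate 1 and for 7 in each of the other 3 libraries. Slc2a1, Slc7a5, Slc3a2, Abcb1a, Abcg2 and Mfsd2a held a peak in all 4 libraries, which is 6 of 10 beside 32.1% of all genes. Over the other 3 libraries, without control replicate 1, the count was 7 of 10 beside 48.4%. Slc16a1 held a peak in every library but control replicate 1, 1 of 10 beside 16.3%. The remaining 3, Slco1a4, Slco1c1 and Slc38a5, held none in any library, beside 34.2% of all genes. No transporter locus was open in the knockdown libraries alone (0 of 10, 3.96% of all genes) or in the controls alone (0 of 10, 0.19%). With shares this low over all genes, a count of 0 among 10 says little about the transporters. The window of a transporter had a median length of 47.6 kb, against 37.3 kb for all genes.

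**Figure D1:**
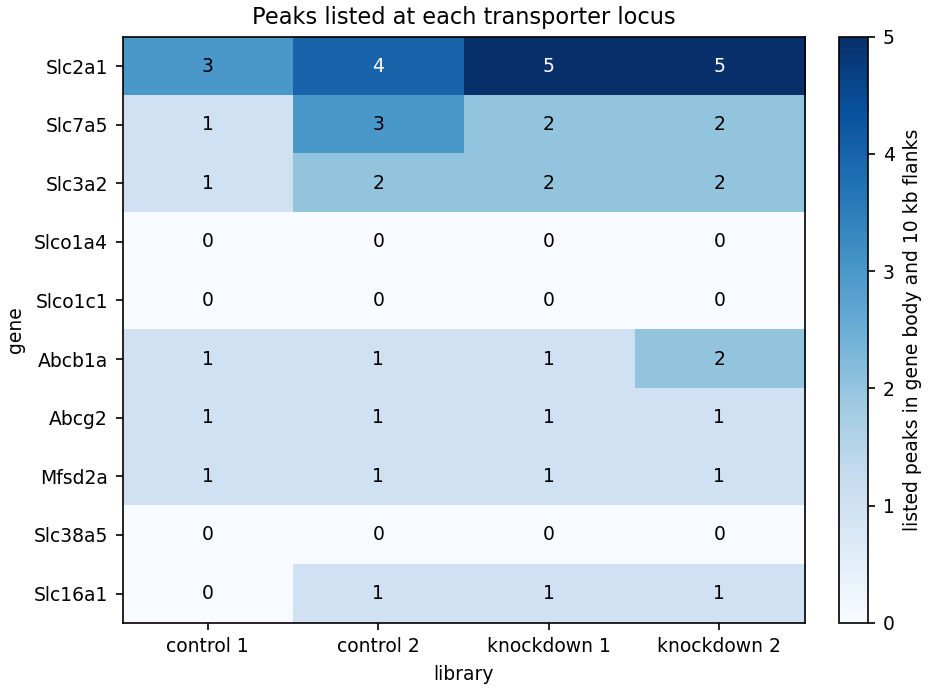
Number of listed peaks in the gene body and 10 kb flanks of each transporter (rows) in each library (columns), written in each cell and shaded on a linear scale. Slc2a1 has 3 to 5 peaks in every library, and Slco1a4, Slco1c1 and Slc38a5 have 0 throughout.

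At gene ends the list was close to the rest of the genome. A peak within 1 kb of an end was listed for 3 transporters in control replicate 1 and for 4 in each other library, or 30% and 40%. Over all genes the shares were 22% in control replicate 1, 38.5% in control replicate 2, 39.5% in knockdown replicate 1 and 45.2% in knockdown replicate 2. Slc2a1, Slc7a5 and Slc3a2 were open at an end in every library (20.9% of all genes), and Slc16a1 had one in all but control replicate 1 (12.6%). Without control replicate 1, 4 of 10 were open at an end in every library, beside 33.5% of all genes. The other 6 had none at either end in any library (51.5%). No gene end was held by the knockdown libraries alone (3.8% of all genes) or by the controls alone (0.0324%).

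**Figure D2:**
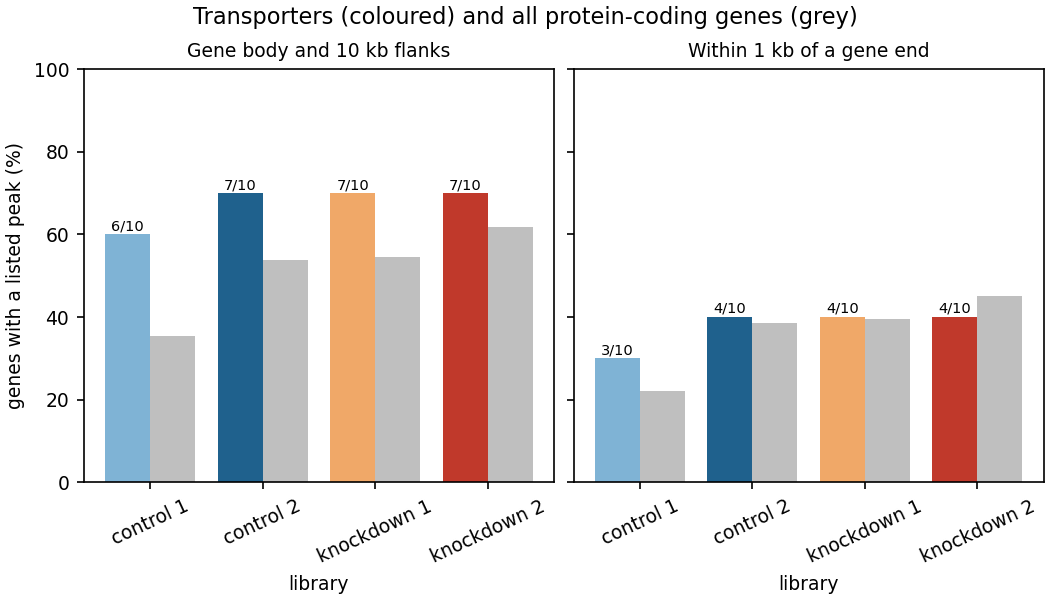
Share of genes with a listed peak, in percent, for the 10 transporters (coloured bars, with their count) and all 21627 protein-coding genes (grey bars), in each library, for the gene body with 10 kb flanks (left) and for gene ends (right). The transporter share is above the grey bar in every library on the left (60% beside 35.4% in control replicate 1, 70% beside 61.7% in knockdown replicate 2). On the right it falls below it in knockdown replicate 2 (40% beside 45.2%).

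Slc2a1 encodes GLUT1, the main glucose carrier of barrier endothelium, and had the most peaks of the 10 genes. Its locus on chromosome 4 (gene from 119108745 to 119137330, plus strand) held 3 and 4 peaks in the control libraries and 5 in either knockdown library. Both controls were below both knockdown libraries, which held for 1 of the 10 transporters and for 9.42% of all genes. The opposite order held for 0 transporters and 0.273% of all genes. The order at Slc2a1 depends on a knockdown replicate 2 peak, from 119098609 to 119098853, that only overlapped the edge of the window. This peak is not counted when 50% of the peak must lie inside. Without it, knockdown replicate 2 would be level with control replicate 2. At the annotated start, control replicate 1 listed a peak from 119108616 to 119109239 and control replicate 2 from 119108506 to 119108969. The knockdown libraries listed it from 119108505 to 119109304 and from 119108532 to 119109325. The start was thus open in all 4 libraries. It stood within the strongest 35.0% of the control replicate 1 list and within the strongest 14.6%, 19.7% and 17.4% of the other lists. The authors' fold enrichment at this peak was 3.96 (control replicate 1), 6.51 (control replicate 2), 4.48 (knockdown replicate 1) and 5.57 (knockdown replicate 2), values that each refer to their own library. An end of the long non-coding RNA gene Gm52706 lies within 1 kb of this peak.

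Another pair of Slc2a1 regions was open in all 4 libraries. The first, from 119105729 to 119106101, ended 2644 bp upstream of the start. The second, from 119141173 to 119142438, lay beyond the far end of the gene, 3843 bp away. Both are outside the gene body, and neither is within 1 kb of the end of any other gene in the RefSeq table. Upstream of these, from 119102279 to 119102741, a region 6004 bp from the start was listed for both knockdown libraries and for no control. It was the single region of this kind at any transporter (1 of 18 regions, beside 10.1% of all regions). In knockdown replicate 1 this peak was near the bottom of the list, at 98.2% from the top with a −log10 q of 1.38, and in knockdown replicate 2 it was at 19.6% with a −log10 q of 8.28. The last 3 Slc2a1 regions were each held by 1 library: an intragenic peak at 119121317 to 119121562 in control replicate 2, another at 119125666 to 119126129 in knockdown replicate 1, and a far upstream peak at 119098609 to 119098853 in knockdown replicate 2. That last peak overlapped the edge of the 10 kb window.

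Slc16a1 encodes MCT1, a proton-coupled carrier of lactate, pyruvate and ketone bodies. Its only region sat on the annotated start on chromosome 3 (gene from 104638664 to 104658462, plus strand). The peak ran from 104638434 to 104638787 in control replicate 2, from 104638425 to 104639341 in knockdown replicate 1 and from 104638470 to 104638786 in knockdown replicate 2. No peak was listed there in control replicate 1. The widths were 354, 917 and 317 bp, so the knockdown libraries lie on both sides of the control. In their own lists the peaks stood at 28.8%, 33.9% and 14.5% from the top. Without control replicate 2, whose peak is the only control peak, the gene would count as held by the knockdown libraries alone. The share of all genes that would do so is not at hand.

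Slc7a5 encodes LAT1, the large neutral amino acid carrier, which works as a dimer with the heavy chain encoded by Slc3a2. The Slc7a5 locus on chromosome 8 (gene from 121881146 to 121907686) had 1 and 3 peaks in the controls, and each knockdown library had 2. A region over its high-coordinate end, from 121907423 to 121908226, was open in all 4 libraries, and an end of the long non-coding RNA gene BC048644 lies within 1 kb of it. It was a weak peak in control replicate 1, with a −log10 q of 1.65 at 83.4% from the top. In control replicate 2 the −log10 q was 6.46 (27.0% from the top), and in the knockdown libraries 6.80 (28.5%) and 6.48 (28.7%). Each value refers to its own list.

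A second Slc7a5 region, from 121898009 to 121898826, lay inside the gene 8860 bp from that end and was listed in every library but control replicate 1. Here the peak of control replicate 2 was low in its list, at 83.0% with a −log10 q of 2.37 and a width of 585 bp. In the knockdown libraries it stood at 24.4% and 25.7%, with a −log10 q of 7.58 and 6.92 and widths of 657 and 818 bp. The gene-end peak and this internal peak had nearly the same rank as each other in both knockdown libraries, and far apart ranks in control replicate 2. Ranks come from lists of unequal length and give no test. The last Slc7a5 region, from 121913426 to 121913749, was in control replicate 2 alone.

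Slc3a2 encodes the heavy chain 4F2hc (CD98), which carries LAT1 to the cell surface. Its locus on chromosome 19 (gene from 8706882 to 8723369, minus strand) had 1 and 2 peaks in the controls, and each knockdown library had 2. The region over its high-coordinate end, from 8722915 to 8723583, was open in all 4 libraries. It is also the neighbourhood of Snhg1, a long non-coding RNA gene, and of snoRNA genes, whose ends lie within 1 kb, so the peak cannot be assigned to Slc3a2 alone. The start in the RefSeq promoter table is another one, at 8713897 inside that gene span, 9018 bp from this region.

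Around the Slc3a2 start at 8713897, peaks were weak. Control replicate 2 listed a peak from 8713375 to 8713977 at 89.2% from the top, and knockdown replicate 2 listed one from 8712939 to 8713958 at 75.9%. Knockdown replicate 1 listed a peak from 8712950 to 8713368 at 99.5%, which ended before the start and its promoter window, and control replicate 1 listed none. The promoter window itself was therefore overlapped in both libraries numbered 2 and in neither numbered 1. Photoreceptor marker genes followed the same numbers: 8 and 7 of 10 had a gene-end peak in the replicate 2 libraries and 0 in each replicate 1 library. Their part in this result was not tested.

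Slc38a5 encodes SNAT5, a carrier of glutamine and other neutral amino acids that is known in retinal endothelium. No library listed a peak in its window on chromosome X (gene from 8271381 to 8280179, plus strand). The nearest listed peak lay 196.5 kb away in control replicate 1, 78.3 kb in both control replicate 2 and knockdown replicate 1, and 18.5 kb in knockdown replicate 2. All lay below the low-coordinate end, the closest of them near Ftsj1. The locus thus held no listed peak in either genotype.

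Slco1c1, a carrier of thyroxine and organic anions, and Slco1a4, an organic anion carrier of brain capillaries, are neighbours on chromosome 6. Slco1c1 runs from 141524354 to 141570177 on the plus strand and Slco1a4 from 141805438 to 141856284 on the minus strand. Neither had a peak in its window in any library. From Slco1c1, the nearest control peaks lay 490.3 and 470.4 kb away, and the nearest knockdown peaks 38.6 and 775.6 kb away. From Slco1a4, the control distances were 771.4 and 184.3 kb, and the knockdown distances 319.7 and 489.5 kb. In each library the same peak was the nearest to both genes, and the one 38.6 kb from Slco1c1 lay near Pde3a. No library of either genotype listed a peak between these genes.

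Abcb1a encodes P-glycoprotein, a pump that keeps many drugs out of neural tissue. Its RefSeq span on chromosome 5 (8567091 to 8748575, plus strand) is the longest of the 10 genes. It held 1 peak in each of the first 3 libraries and 2 in knockdown replicate 2. The region shared by all 4 libraries, from 8622766 to 8623326, is 55675 bp from the annotated start of Abcb1a and lies at an end of Rundc3b, a protein-coding gene whose span overlaps that of Abcb1a. It stood at 46.3% and 23.4% from the top of the control lists and at 8.9% and 10.2% from the top of the knockdown lists. Each rank refers to its own list, and the lists differ in length, so this shift is not a measured change in opening. The share of all regions with such a shift is not at hand. The count of Abcb1a among the 6 loci open in every library rests on this peak. Apart from it, Abcb1a held 1 peak in 1 library, from 8659923 to 8660636 in knockdown replicate 2, at 70.9% from the top. No library listed a peak at the single start that the promoter table gives, which lies inside the overlap with Rundc3b. Whether the peak of knockdown replicate 2 marks another start of Abcb1a cannot be read from these tables.

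Abcg2 encodes BCRP, the second main drug efflux pump of the barrier. Its span on chromosome 6 (58584491 to 58692451, plus strand) has 3 starts in the promoter table, at 58584533, 58596672 and 58640546. A peak over start 3 was listed in control replicate 2 from 58640371 to 58640712, in knockdown replicate 1 from 58640339 to 58640672 and in knockdown replicate 2 from 58640298 to 58640821. These stood at 17.9%, 42.2% and 50% from the top of their lists. Control replicate 1 did not list it, and its single Abcg2 peak lay elsewhere, from 58594448 to 58594647, 2025 bp upstream of start 2. The locus therefore counted as open in all 4 libraries through different sites, and start 3 itself was open in all but control replicate 1. Starts 1 and 2 had no peak in any library.

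Mfsd2a encodes a lipid carrier for lysophosphatidylcholine that is known to restrain transcytosis in barrier endothelium. Its gene on chromosome 4 (122946850 to 122961194, minus strand) had exactly 1 peak in every library, all at the same site. The site, from 122955092 to 122956122, was inside the gene, 5066 bp downstream of the annotated start, and the start had no peak. The peak was 210 and 914 bp wide in the control lists, and 895 and 856 bp wide in the knockdown lists. The −log10 q was 2.07 and 1.36 in the control lists, against 4.46 and 3.40 in those of the knockdown. The control values are below both knockdown values, but each is measured against its own library and they are not comparable between libraries. The order was the same at the shared flank regions of Slc2a1, the Slc7a5 gene-end region and the shared Abcb1a region. At the Slc2a1 start and the Slc3a2 gene-end region it was not. The share of all regions with this order is not at hand. When peaks had to reach a −log10 q of 3, Mfsd2a became the 1 transporter locus held by the knockdown libraries alone. That cutoff left control replicate 1 with 2 of its 8 transporter peaks, and the share of all genes with this pattern is not at hand for it. With equally long lists of the 7608 strongest peaks, it was held by the replicate 1 libraries of both groups and by neither replicate 2 library.

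**Figure D3:**
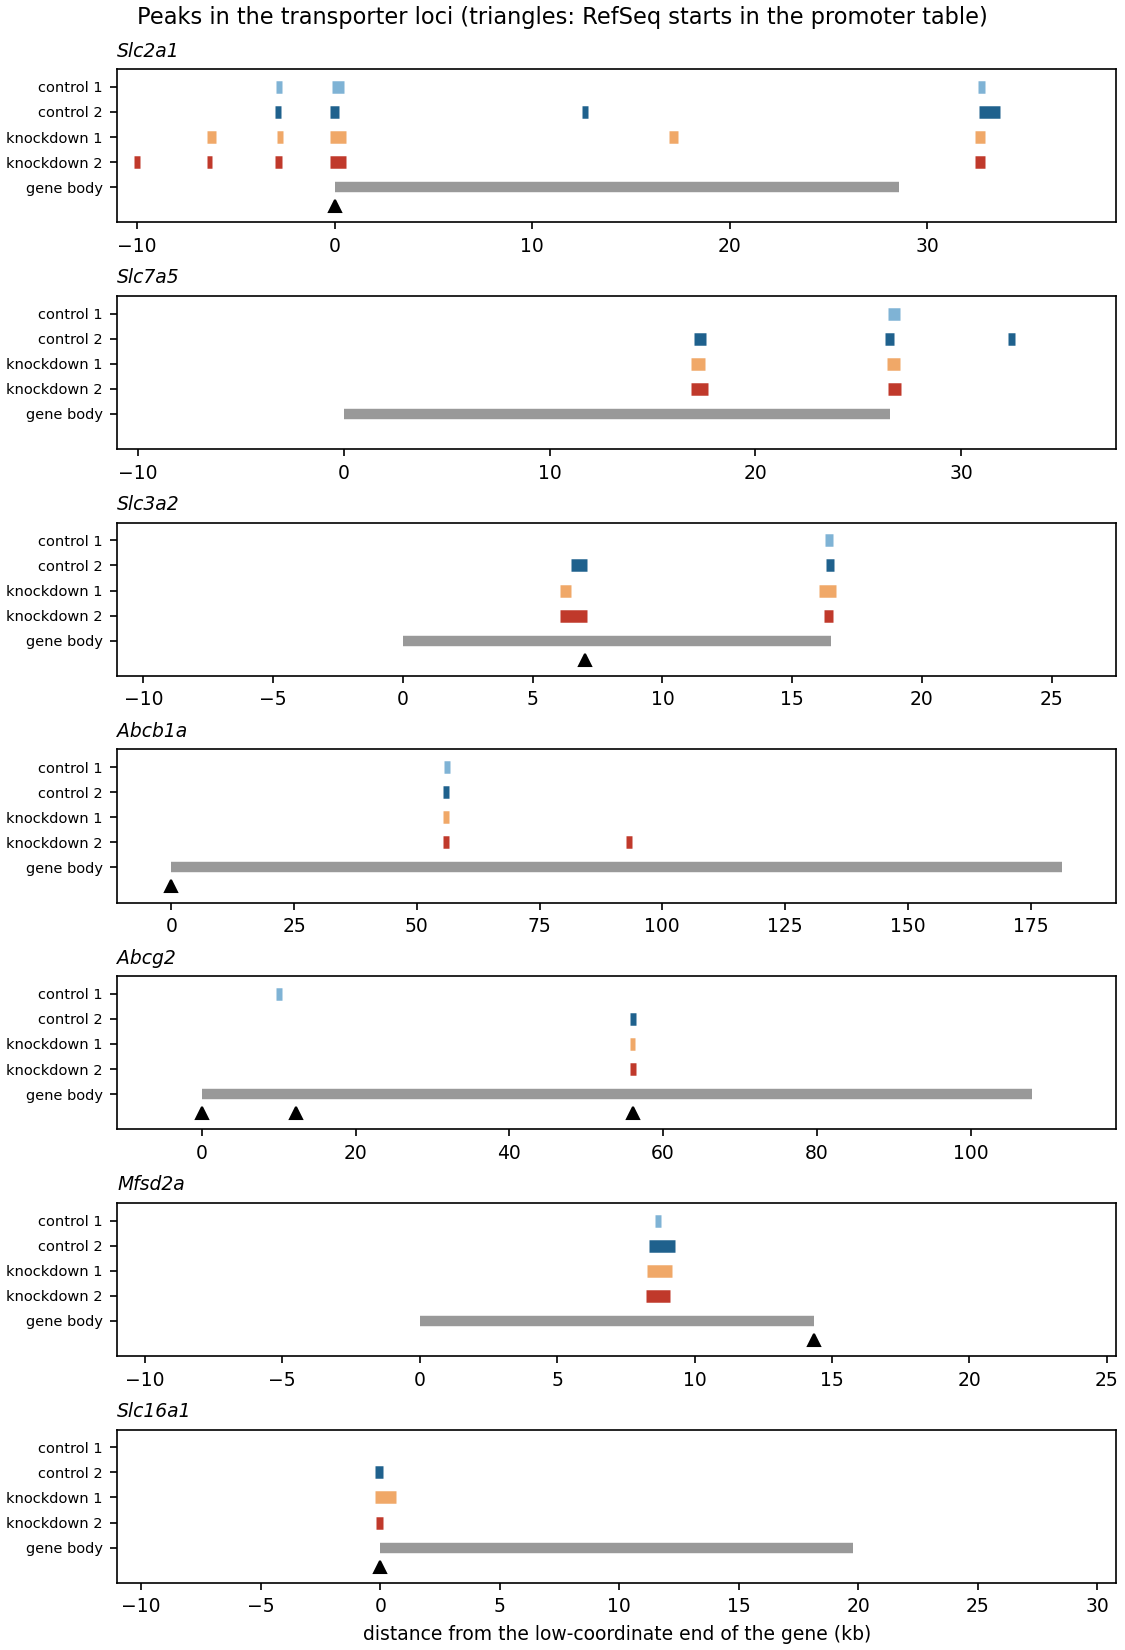
Position of each listed peak in the 4 libraries (coloured bars, narrow ones widened to be visible) at the 7 transporters with any peak, as distance in kb from the low-coordinate end of the gene. Grey bars are gene bodies and triangles the starts in the RefSeq promoter table. Slc2a1 has 3 sites in all 4 libraries, Mfsd2a has 1 site inside the gene, and at Abcg2 the peak of control replicate 1 is at another site than the rest.

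Merged across libraries, the peaks made 18 regions, of which 13 touched a gene body and 5 lay in flanks. All 4 libraries held 7 of them, or 38.9%, beside 20.3% of all 25263 regions. The set of all regions is not limited to gene bodies and flanks, as the 18 are, so the shares compare unlike sets. Without control replicate 1, the other 3 libraries all held 11 of the 18, beside 36.9% of all regions. Every library but control replicate 1 held 4, or 22.2% beside 16.6%. A single library held 6, or 33.3% beside 41.9%. Regions held by both controls and neither knockdown library numbered 0 (0.158% of all regions). Regions held by both replicate 2 libraries alone also numbered 0, while 7.66% of all regions had that pattern. The 7 shared regions belonged to 5 genes: Slc2a1, Slc7a5, Slc3a2, Abcb1a and Mfsd2a. Of these 7, those of Abcb1a and Slc3a2 lie at the ends of other genes as well, as do the gene-end regions of Slc2a1 and Slc7a5.

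**Figure D4:**
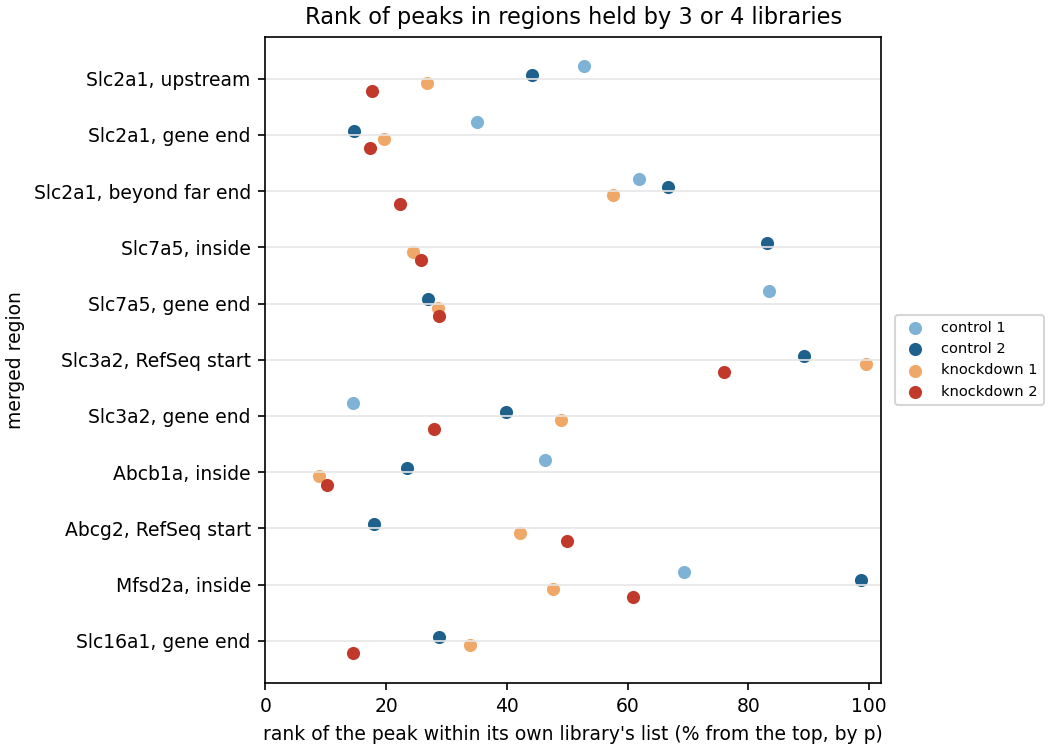
Rank of each peak within its own library's list, in percent from the top by p, for the 11 transporter regions held by 3 or 4 libraries, with each library in its colour. The Slc2a1 start stands at 14.6% to 35.0% in all 4 lists, while the region around the Slc3a2 start stands at 75.9% to 99.5%. The lists differ in length, so a shift in rank between libraries is not a change in opening.

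The number of peaks at transporter loci overlapped between the genotypes in the full lists and did not overlap under some alternatives. There were 8 and 13 in the control lists, against 13 and 14 in the knockdown lists, with means of 10.5 ± 3.5 (SD, n = 2) and 13.5 ± 0.71 (SD, n = 2). Control replicate 2 and knockdown replicate 1, whose lists are almost equally long, both had 13. The difference of 3 peaks had a two-sided exact permutation p = 0.667, where 2 libraries against 2 allow no p below 0.333. Without control replicate 1 the difference was 0.5 peaks. With equally long lists there were 8 and 7 peaks in the controls against 9 in each knockdown list. When peaks had to reach a −log10 q of 3, the counts were 2 and 8 against 10 and 12, a difference of 6. With 50 kb flanks they were 12 and 25 against 27 and 30. In these 3 cases both knockdown lists were above both controls, and the exact permutation p = 0.333 is the smallest this design allows. No share over all genes is at hand for these settings. The full lists run in the same order, with 7608 and 13672 peaks against 13689 and 19886. Per 1000 listed peaks, the groups overlapped with 50 kb flanks (1.58 and 1.83 against 1.97 and 1.51) and stayed apart in the other cases. Per 1000 listed peaks, the values were 1.05 and 0.951 for the controls, against 0.95 and 0.704 for the knockdown libraries (exact permutation p = 0.333). The values 0.951 and 0.95 are nearly a tie, from 13 peaks each in lists of 13672 and 13689, so the groups barely differ in order. Without control replicate 1 the difference was -0.124 per 1000, against -0.174 with it. That sign was not stable, since it became positive, at 0.197 per 1000, with equally long lists, and also, at 0.259, when a −log10 q of 3 was required. The number of transporters with a locus peak differed by 0.5 between the group means in the full lists, as did the number with a gene-end peak (exact permutation p = 1 for both). Both differences were 0 without control replicate 1. For loci the difference was 3 when a −log10 q of 3 was required (2 and 6 loci in the controls, 7 in each knockdown list) and 1.5 with 50 kb flanks (exact permutation p = 0.333 for both). The 50 kb flanks added Slco1c1 in knockdown replicate 1 alone and Slc38a5 in knockdown replicate 2 alone, so no transporter was gained in both.

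The 3 transporter promoters held by 3 or 4 libraries were richer in G+C than the 7 held by none, which is described here with no test. Over all 32619 listed promoters, the 250 bases before the start had a median G+C of 63.6% where all 4 libraries held the promoter and of 48.4% where none did. The ratio of observed to expected CpG had medians of 0.82 and 0.23. Slc16a1 had 76.4% G+C and a ratio of 1.03, Abcg2 start 3 had 67.6% and 0.81, and Slc2a1 66.4% and 0.51. At the other extreme, Slco1a4 (39.2%), Slco1c1 (42.8%) and the single listed start of Abcb1a (40.4%), which may not be its only one, had no CpG in these bases and no peak. By CpG ratio the order did not hold. Mfsd2a (61.6% G+C, ratio 0.75) and Abcg2 start 2 (50% and 0.65) had no peak and a higher ratio than Slc2a1, and Mfsd2a was near both medians of promoters open in all libraries. Slc38a5 was between, with 55.2% and 0.45. Of the 11 promoters, 1 was held by all 4 libraries (13.8% of all promoters), 2 by every library but control replicate 1 (8.4%) and 7 by none (66.4%). Without control replicate 1, 3 of the 11 were held by every library, beside 22.2%. Neither genotype alone held any (0 of 11 in each direction, beside 2.89% for the knockdown libraries and 0.0307% for the controls). By library, 4 of the 11 were overlapped in control replicate 2 and in knockdown replicate 2, 3 in knockdown replicate 1 and 1 in control replicate 1.

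**Figure D5:**
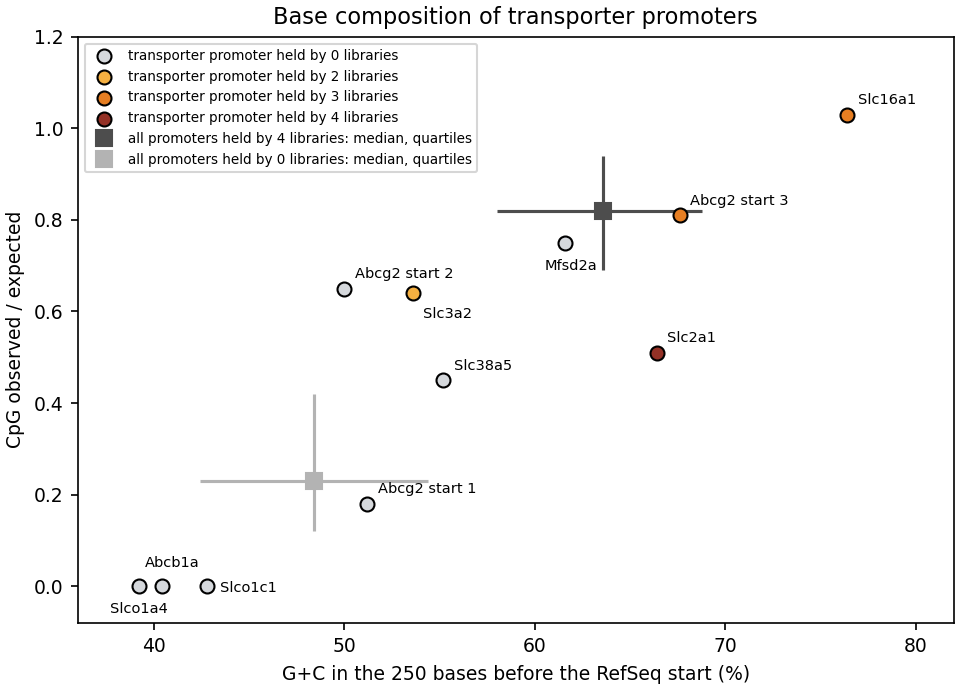
G+C content (percent, horizontal) and observed over expected CpG (vertical) of the 250 bases before each of 11 transporter starts, coloured by the number of libraries with a peak over the promoter. Squares with bars give the median and quartiles of all promoters held by 4 libraries (63.6%, 0.82) and by none (48.4%, 0.23). Mfsd2a lies near the dark square although no library held it.

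Motif matches were counted in the same 250 bases on both strands. The E2-box CAGGTG was present in 2 of 11 transporter promoters, Mfsd2a and Slc38a5, beside 17.3% of all promoters. Neither of those promoters had a peak in any library of either genotype. GGGCGG, the Sp/Klf motif, was present in 6 of 11, beside 33% of all. It had 4 matches at Abcg2 start 3, 2 each at Slc2a1 and Abcg2 start 2, and 1 each at Slc16a1, Slc3a2 and Slc38a5. Of these, Abcg2 start 2 and Slc38a5 had no promoter peak in any library. The Tcf/Lef motif CTTTGA was found in 3 of 11 (Slc3a2, Abcb1a and Mfsd2a, 13.9% of all), CCAAT in 3 of 11 (34% of all), the ETS motif CCGGAA in 1 (Slc3a2, 12.1% of all) and the forkhead motif TGTTTAC in 1 (Abcb1a, 3.19% of all). The AP-1 motif TGANTCA had 0 matches, beside 6.78% of all promoters. No match overlapped another in the 11 promoters (0 pairs). A match describes the letters and not the binding of a factor.

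A further list of 38 barrier transporters and receptors was counted in the same windows. A locus peak was listed for 16 and 26 of them in the control lists, and for 25 and 34 in the knockdown lists. All 4 libraries held 12 of 38 (32.1% of all genes), every library but control replicate 1 held 9 (16.3%), and none held 3 (34.2%). The knockdown libraries alone held 2 of 38, a share near the 3.96% of all genes, and the controls alone held 0 (0.19%). Those 2 were Slc1a5, a glutamine and neutral amino acid carrier (1 and 2 peaks in the knockdown libraries), and Slc7a8, the LAT2 light chain (1 and 3 peaks). The weaker of the best ranks in the 2 knockdown libraries was 83.9% from the top for Slc1a5 and 87.1% for Slc7a8. At gene ends, Slc1a5, Slc5a3 and Slc38a2 were held by the knockdown libraries alone, 3 of 38 beside the 3.8% of all genes given above. The loci of Slc5a3 and Slc38a2 also held a peak in control replicate 1, at 98.4% and 48.6% from the top.

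Junction and Wnt genes that control the barrier held locus peaks in 13 of 25 cases in control replicate 1 and in 22 of 25 in each other library. Over all genes the shares were 35.4% in control replicate 1 and 53.9% to 61.7% in the others. Of the 25, 13 were open in all 4 (32.1% of all genes) and 5 in all but control replicate 1 (16.3%). A further 2 were held by the knockdown libraries alone (3.96%). These were Tjp1, which encodes the scaffold ZO-1 (2 and 3 peaks, the weaker best rank at 65.9%), and Tcf7, a transcription factor of Wnt signalling (1 peak in each, 38.7%). At gene ends, 1 of 25 was held by the knockdown libraries alone, the Wnt co-receptor gene Lrp6, beside 3.8% of all genes. The Lrp6 locus also held a peak in control replicate 2, at 93.9% from the top.

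Markers of the sorted cell type were open in both groups. Of 11 endothelial genes, 10 had a locus peak in control replicate 1 and 11 in each other library. At gene ends the counts were 4 and 6 in the control lists, and 6 and 7 in the knockdown lists. Cdh5, Tie1, Clec14a and Cldn5 were open at an end in all 4 libraries (20.9% of all genes), and Pecam1, Tek, Erg and Egfl7 in none (51.5%). Kdr lacked an end peak in control replicate 1, Esam had one in the knockdown libraries alone (3.8%), and Eng was mixed. The Esam locus held a peak in all 4 libraries. Of 10 photoreceptor genes, 2 and 4 had a locus peak in the replicate 1 libraries and 10 in each replicate 2 library. Muller glia and astrocyte markers had 4 of 9 in control replicate 1 and 5 of 9 in every other library. Pericyte and smooth muscle markers had 0 and 1 of 8 in the control lists and 1 and 3 in the knockdown lists. Pigment epithelium markers had 3 of 8 in control replicate 1 and 4 elsewhere. Leukocyte markers had 3 of 7 in each control library and 2 in each knockdown library, and erythroid markers 1 of 6 throughout. Over all genes, a locus peak was listed for 35.4% in control replicate 1 and for 53.9% to 61.7% in the other lists. At gene ends, glia markers had 4 of 9 in control replicate 2 and 3 elsewhere, and pigment epithelium markers 2 of 8 throughout. Leukocyte markers had an end peak for 1 of 7 in control replicate 1 and 0 elsewhere, and erythroid markers for 0 in every library. Aif1, Cd68 and Klf1 had a locus peak in all 4 libraries and an end peak in none. Glia and pigment epithelium are known to use Slc2a1 and Slc16a1 as well, and the part of other cells in the transporter peaks was not tested.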

How the data were processed

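Sources were 4 deposited broadPeak lists on mm10, called per library and not pooled. Per the submitters' processing notes, the authors used bedtools 2.26.0, MACS2 2.1.1, SAMtools 1.3, Picard 2.9.2, Bowtie2 2.3.2 and Trimmomatic 0.36; roles, settings and any transposase shift are not given in the sources used here. The deposited lists give each peak a −log10 p, a −log10 q (all above 1), the fold enrichment as a ratio to local background, and a score of about 10 times the −log10 q, limited to 1000. Read depth is unknown.

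Groups and replicate numbers came from the sample titles. Gene spans came from RefSeq on GRCm38.p6, and starts and strands from its promoter table. Windows, overlaps of at least 1 bp, merged regions and exact two-sided permutation tests were computed in Python 3.11.15 (pandas 2.3.3, numpy 2.4.6) and tested on simulated intervals. Peaks were ranked within a list by p. All 10 transporters are described; from the other lists, genes held at the locus by both libraries of a single group are named, up to 6 per direction, and gene-end examples were chosen after their values were seen. The transporters and lists were chosen with earlier results of these data known. As alternatives, peaks had to reach a −log10 q of 3; others were the 7608 strongest peaks per library, 50% of the peak inside, flanks of 0 and 50 kb, 3 kb gene ends, each library left out, and the replicate number as a block.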

Additional observations from a re-analysis of the deposited data

How the results depend on the processing

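Loci held by the controls alone, at the gene or its ends, numbered 0 under every alternative run. The count held by the knockdown libraries alone rose from 0 to 1 (Mfsd2a) with a −log10 q of at least 3. With each library left out in turn it ranged from 0 to 1 for loci and from 0 to 1 for gene ends, the 1 being Slc16a1 without control replicate 2. The share of all genes held by the knockdown libraries alone is given for the full lists only (3.96% for loci, 3.8% for gene ends). It may differ under these alternatives. The difference in transporters with a locus peak, 0.5, was 0 with equally long lists, 3 with a −log10 q of at least 3, 1.5 with 50 kb flanks, and 0 to 1 with a library left out; for gene ends it was 0 to 1 with a library left out and 1 with the stricter q. The difference of 3 peaks kept its sign, at 1.5 with equally long lists, 6 with the stricter q and 10 with 50 kb flanks. It was 2 without flanks (6 and 10 peaks in the controls, 10 in each knockdown list). With 50% of the peak inside it was 2.5 (8 and 13 in the controls, 13 in each knockdown list). Under both of these settings the groups met. The difference was 0.5 without control replicate 1 and 5.5 without control replicate 2. Per 1000 listed peaks, the difference of -0.174 turned positive with a −log10 q of at least 3 (0.259), with equally long lists (0.197) and with 50 kb flanks (0.0376). With a library left out it ranged from -0.297 to -0.0515.

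With the replicate number as a block, the differences stayed at 3 peaks, -0.174 per 1000, 0.5 loci and 0.5 gene ends, and the exact p were 0.5, 0.5, 1 and 1, where 0.5 is the smallest possible. Deviations of same-numbered libraries correlated at 0.03 across merged regions, and the labels do not say that the numbers pair libraries. Still, both replicate 2 libraries alone held 7.66% of all regions, and peaks at photoreceptor gene ends followed the replicate numbers. Unknown depth limits every absent peak.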
